A study of Arabidopsis thaliana with 12 samples.

Results

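The class III peroxidase genes of Arabidopsis thaliana were followed in seedlings with less of the histone variant H3.3, with mutated H2A.Z genes, or with both. The members were 60 genes listed by identifier, which make up part of the family. Of these, 59 were among the 23893 genes of the deposited table, AT2G18140 was not analysed here, and the 48 with a mean of at least 1 TPM over all 12 libraries were tested. TPM is a transcript level corrected for gene length and scaled to a library total of 1000000. The tested members were thus chosen by their mean TPM, a measured value, and the 60 by identifier. The lowest tested members were AT5G06730 at 1.005 TPM, AT1G49570 at 1.12 TPM and AT2G18150 at 1.29 TPM, and the highest untested ones were PRX52 at 0.918 TPM, AT1G05240 at 0.744 TPM and AT5G19890 at 0.724 TPM. The tested members AT5G06730 and AT1G49570 passed only through their highest genotype, and 44 members reached 1 TPM in each of the 4 genotypes. A further 15 genes annotated as peroxidases of this family in RefSeq were not on the list.

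Messenger RNA was sequenced from whole seedlings of age 7 days, kept at 21 °C in short days, with 3 libraries for each of 4 genotypes. Col is the wild type. The line h3.3kd (genotype label h3.3kd-1) carries a knockdown of H3.3, the line h2a.z carries mutated H2A.Z genes, and h3.3kd;h2a.z (genotype label h3.3kd-1;h2a.z) carries the knockdown and the mutations together, hereafter the double mutant. Neither the alleles behind h2a.z nor the construct behind the knockdown is stated in the labels. No library is stated to come from a separate growth, and the p-values therefore measure the spread among libraries, which may be technical. Seedlings hold roots and shoots together, so a lower level can mean fewer cells of a type or less RNA per cell, which cannot be told apart.

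Class III peroxidases are secreted heme enzymes of plants. In the cell wall they use hydrogen peroxide to oxidise phenolic compounds, which joins lignin units and cross-links wall polymers, and they can also form reactive oxygen species that loosen the wall or act in defence. NADPH oxidases of the plasma membrane supply superoxide from which hydrogen peroxide forms in the wall, and roots, with their Casparian strips, root hairs and xylem, express many members of the family.

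H3.3 is encoded by HTR4, HTR5 and HTR8, and H2A.Z by HTA8, HTA9 and HTA11. HTR4 averaged 386 ± 3.41 TPM in Col (SD, n = 3, as for each mean below), 36.2 ± 1.73 TPM in h3.3kd, 350.5 ± 9.61 TPM in h2a.z and 35.4 ± 5.25 TPM in the double mutant, and HTR8 was low in the same genotypes. HTR5 kept 207 ± 1.998 TPM in h3.3kd against 249.9 ± 12.1 TPM in Col, so transcripts of 1 of the 3 H3.3 genes largely remained. HTA8 fell from 9.20 ± 0.369 TPM in Col to 0.0746 ± 0.129 TPM in h2a.z, HTA11 from 24.4 ± 1.25 TPM to 2.86 ± 0.425 TPM, and HTA9 from 161 ± 8.50 TPM to 32.8 ± 4.07 TPM. HTA9 stood at 60.5 ± 7.00 TPM in the double mutant, above h2a.z. One read weighed 3.85 times as much in h2a.z replicate 1 as in Col replicate 1, and between 0.651 and 1.01 times as much in the other libraries, so that h2a.z library was the shallowest.

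More members were called higher than lower in h2a.z, and calls in both directions were found in h3.3kd and the double mutant. Among 48 tested members, 30 were higher and 3 lower in h2a.z than in Col, against 28.9% of all 18851 tested genes higher and 18.3% lower, 47.2% in all (limma on log2(TPM + 1), Benjamini-Hochberg adjusted p below 0.05, the rule for every call below). In h3.3kd, 15 members were higher and 11 lower, against 9.12% and 26.7% of all genes, 35.9% in all. In the double mutant, 15 members were higher and 15 lower than in Col, against 20.3% and 30.7% of all genes, 51.0% in all. All 3 comparisons use the same Col libraries. Without Col replicate 1 or without h3.3kd replicate 1 the number higher in h3.3kd was 9. The number lower in h2a.z was 1 without Col replicate 2, Col replicate 3 or h2a.z replicate 1, and 5 without h2a.z replicate 3. Without the shallow h2a.z replicate 1, 29 members were called higher in h2a.z. AT5G06730, one of the 30, passed the floor only through h2a.z, and leaving out AT5G06730 and AT1G49570 gave 29 higher in h2a.z.

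The median log2 difference from Col over the 48 members was 0.43 in h2a.z, 0.05 in h3.3kd and 0.02 for the double mutant, and over all tested genes it was 0.06, -0.11 and -0.07. The median of all genes was thus shifted in h3.3kd, and after rescaling by median ratios, which sets that median near 0, 17 members were higher and 10 lower in h3.3kd, where 17.2% of all genes were higher and 16.6% lower. On the same rescaled values 24 members were higher and 5 lower in h2a.z, against 24.3% and 25.3% of all genes, and 16 were higher and 14 lower in the double mutant, against 26.8% and 26.1%. The rises called ranged from 0.17 to 1.26 on the log2 scale in h3.3kd, from 0.28 to 1.79 in h2a.z and from 0.23 to 1.53 in the double mutant. The falls called ranged from -0.19 to -3.20, from -0.22 to -0.38 and from -0.32 to -4.002 in the same order. The rise of 0.17 in h3.3kd was that of PRXR1 and the fall of -0.19 that of AT3G28200. Neither was called without Col replicates 1 or 2, or without h3.3kd replicates 1 or 2. The 6 members with no call against Col were AT1G30870, AT1G49570, AT2G35380, AT5G40150, AT5G51890 and RHS18. These counts describe the members tested and are no test of the family as a whole.

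**Figure D1:**
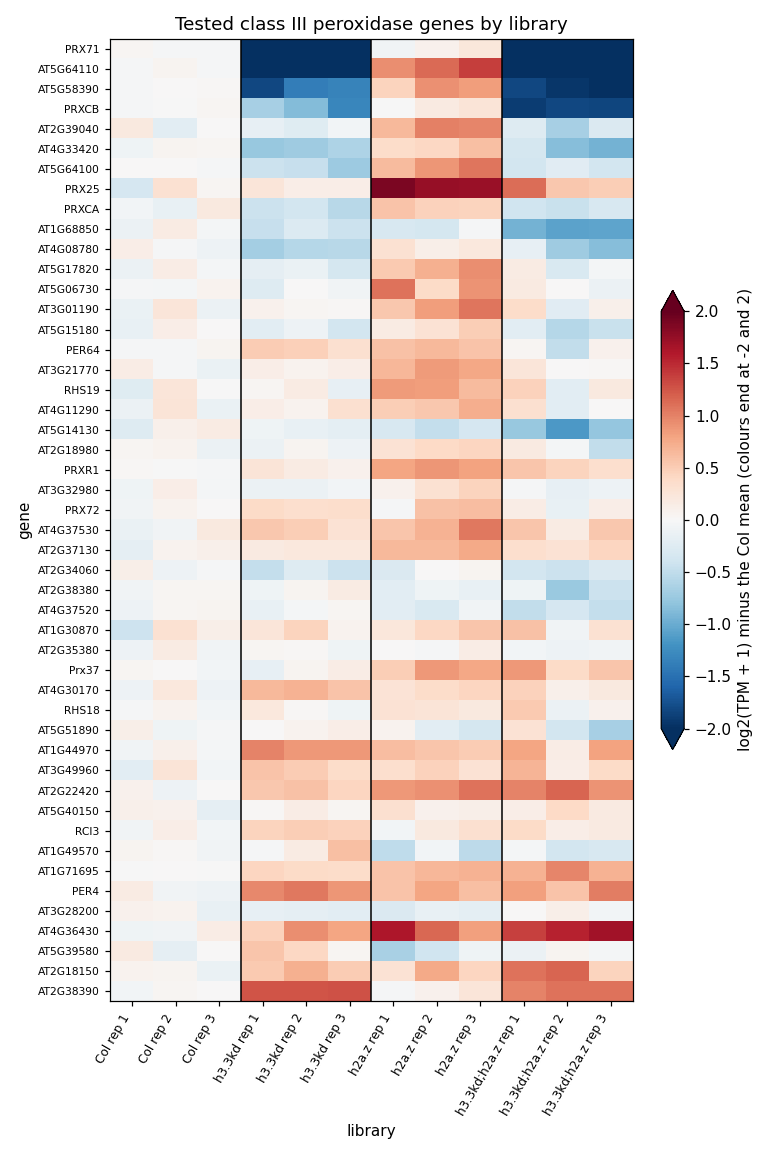
Level of each of the 48 tested members in each of the 12 libraries, as log2(TPM + 1) minus the Col mean of that gene (colour, ending at -2 and 2; rows are genes ordered by the double mutant against h2a.z, columns are libraries, black lines separate genotypes). PRX71, AT5G64110, AT5G58390 and PRXCB are blue in every library of h3.3kd and of the double mutant, and PRX25 is darkest red in h2a.z.

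The largest falls with the knockdown were those of PRX71 (AT5G64120), a wall peroxidase linked to lignin and to the response to wall damage, and of AT5G64110, which lies next to it on chromosome 5 and next to another member, AT5G64100. The 250 bases before their annotated transcription starts are shown because these neighbours share a location but differ in response. They are read on the minus strand, 5′ to 3′, from the RefSeq genome TAIR10.1 at chr5:25652248-25652497, chr5:25656068-25656317 and chr5:25661008-25661257, and capitals mark TTGAC, the W-box core bound by WRKY factors, on either strand.
AT5G64100: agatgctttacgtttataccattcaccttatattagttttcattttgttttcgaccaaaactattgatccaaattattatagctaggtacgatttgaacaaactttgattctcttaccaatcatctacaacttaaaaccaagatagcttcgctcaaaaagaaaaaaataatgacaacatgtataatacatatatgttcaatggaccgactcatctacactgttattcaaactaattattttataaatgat
AT5G64110: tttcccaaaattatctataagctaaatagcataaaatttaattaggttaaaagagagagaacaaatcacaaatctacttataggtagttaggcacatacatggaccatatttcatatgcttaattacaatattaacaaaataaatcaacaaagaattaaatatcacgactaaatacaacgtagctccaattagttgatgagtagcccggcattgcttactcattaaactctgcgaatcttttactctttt
PRX71: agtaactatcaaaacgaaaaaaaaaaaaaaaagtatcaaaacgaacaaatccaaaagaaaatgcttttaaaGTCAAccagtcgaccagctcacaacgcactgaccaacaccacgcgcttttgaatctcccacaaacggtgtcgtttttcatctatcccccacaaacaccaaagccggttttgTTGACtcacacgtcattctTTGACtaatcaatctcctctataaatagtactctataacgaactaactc
The PRX71 window holds 3 W-box cores and the windows of its neighbours hold 0. Of the 60 listed members 25 carry at least 1 core in the same window (41.7%), against 44.9% of 27443 annotated genes. The G-box CACGTG was in 0 members and in 6.5% of all genes, the heat shock element GAANNTTC in 3 members (5.0%) and in 9.6%, and TATAAA in 30 members (50.0%) and in 47.3%, each searched on both strands. These are matches of letters, and no binding was measured.

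PRX71 read 266, 256 and 256 TPM in the Col libraries, 29.6, 27.0 and 25.8 TPM in h3.3kd, 246, 275 and 304 TPM in h2a.z, and 13.6, 13.1 and 19.8 TPM in the double mutant. The knockdown libraries lay far below Col and h2a.z in either background, while h2a.z and Col overlapped. The log2 difference from Col was -3.20 ± 0.12 in h3.3kd (SE, as for each difference below; adjusted p = 1.49e-10) and -4.002 ± 0.12 in the double mutant (adjusted p = 4.54e-12). It was 0.08 ± 0.12 in h2a.z (adjusted p = 0.614). PRX71 was also lower in the double mutant than in h3.3kd, by a log2 difference of -0.81 ± 0.12 (adjusted p = 0.000102).

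AT5G64110 read 34.0, 36.3 and 34.0 TPM in Col, 5.78, 7.08 and 5.32 TPM in h3.3kd, 67.1, 77.4 and 92.5 TPM in h2a.z, and 5.61, 3.91 and 3.46 TPM in the double mutant. It was thus raised in h2a.z and low wherever H3.3 was knocked down, with no overlap between those groups. The log2 difference from Col was -2.35 ± 0.14 in h3.3kd (adjusted p = 2.03e-08), 1.15 ± 0.14 in h2a.z (adjusted p = 1.20e-05) and -2.77 ± 0.14 in the double mutant (adjusted p = 1.24e-09). Its difference from h2a.z to the double mutant, -3.92 ± 0.14, was a 15.1-fold fall on the log2(TPM + 1) scale. The third neighbour, AT5G64100, a peroxidase expressed in root hairs, was also highest in h2a.z and below Col in both knockdown genotypes, over a smaller range. It read 197, 197 and 191 TPM in Col, 145, 142 and 118 TPM in h3.3kd, 304, 362 and 408 TPM in h2a.z, and 152, 167 and 150.5 TPM in the double mutant. Its groups did not overlap Col in any mutant, and its log2 differences were -0.53 ± 0.09, 0.86 ± 0.09 and -0.32 ± 0.09 (adjusted p = 0.000562, 4.15e-06 and 0.0118). The coding sequences of AT5G64100 and AT5G64110 are 69.3% identical and those of AT5G64110 and PRX71 64.4%.

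**Figure D2:**
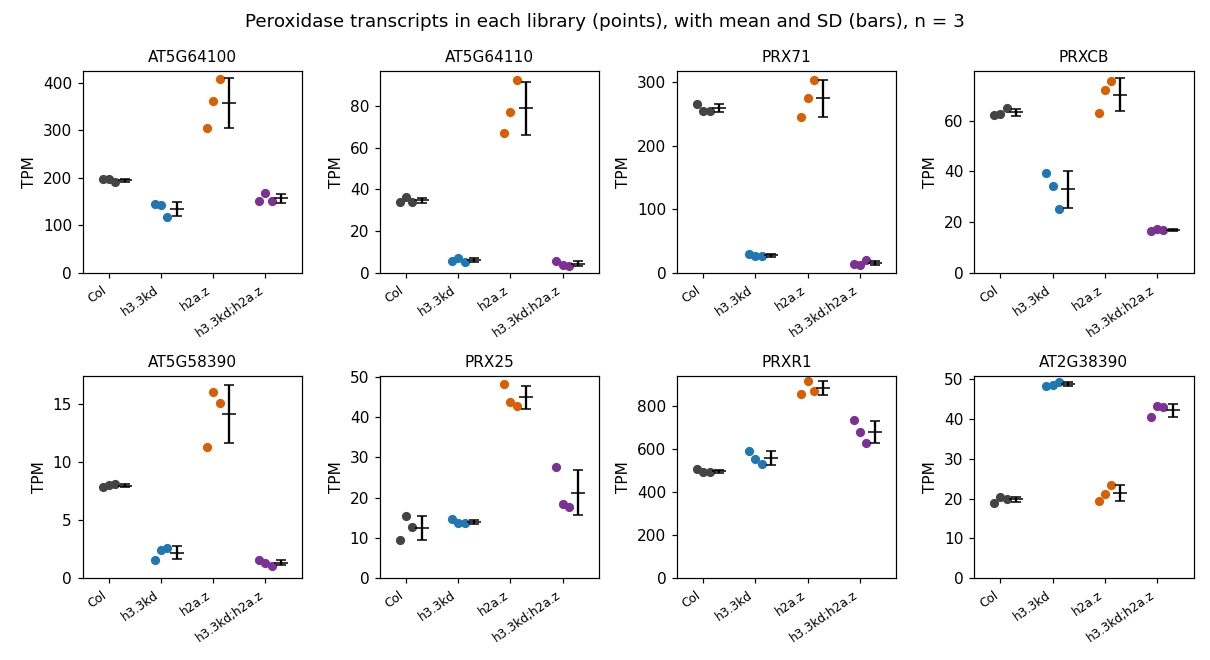
TPM of 8 members in each library (points), with the mean and SD of each genotype beside them (bars, n = 3), each panel starting at 0 TPM. AT5G64110 and AT5G58390 rise in h2a.z and lie low in h3.3kd and the double mutant, PRX71 and PRXCB are low in the knockdown genotypes and near Col in h2a.z, and AT2G38390 is higher in both knockdown genotypes.

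AT5G58390, further along chromosome 5, had the same pattern at a lower level. It read 7.85, 7.99 and 8.11 TPM in Col, 1.54, 2.44 and 2.57 TPM in h3.3kd, 11.3, 16.0 and 15.1 TPM in h2a.z, and 1.53, 1.33 and 1.09 TPM in the double mutant. No library of one of these genotypes overlapped with Col. The log2 difference was -1.51 ± 0.15 in h3.3kd (adjusted p = 2.85e-06), 0.74 ± 0.15 in h2a.z (adjusted p = 0.000941) and -1.96 ± 0.15 in the double mutant (adjusted p = 7.50e-08).

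PRXCA and PRXCB, which contribute to the oxidative burst at the cell surface during immunity, were both lower in h3.3kd and the double mutant. PRXCB, by far the more abundant of the pair, read 62.3, 62.7 and 64.9 TPM in Col, 39.4, 34.2 and 25.1 TPM in h3.3kd, 63.2, 72.1 and 75.6 TPM in h2a.z, and 16.3, 17.2 and 16.9 TPM in the double mutant. The double mutant lay below h3.3kd, which lay below Col, with no overlap, and h2a.z overlapped Col. The log2 difference was -0.95 ± 0.12 in h3.3kd (adjusted p = 2.53e-05) and -1.85 ± 0.12 in the double mutant (adjusted p = 1.20e-08), and 0.15 ± 0.12 in h2a.z (adjusted p = 0.327). PRXCA averaged 2.97 ± 0.481 TPM in Col, 1.90 ± 0.188 TPM in h3.3kd, 4.56 ± 0.260 TPM in h2a.z and 2.02 ± 0.137 TPM in the double mutant. It was higher in h2a.z by 0.49 ± 0.12 (adjusted p = 0.00365) and lower in h3.3kd by a log2 difference of -0.45 ± 0.12 (adjusted p = 0.00940). Its fall in the double mutant, -0.39 ± 0.12 with adjusted p = 0.0139, was not called without Col replicate 3 (adjusted p = 0.0741). The coding sequences of this pair are 90.7% identical and share runs of up to 111 bases, so reads could have been split between them.

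Of 12 members tied to lignin or the Casparian strip, 10 were tested; PRX52 and PRX2 were under the floor. In h2a.z, 7 were higher and 0 lower, in h3.3kd 5 were higher and 2 lower, and in the double mutant 4 were higher and 2 lower. Their median log2 difference from Col was 0.51 in h2a.z, 0.27 in h3.3kd and 0.04 for the double mutant. Over all genes 28.9% were called higher and 18.3% lower in h2a.z, and 9.12% and 26.7% in h3.3kd. In the double mutant these shares were 20.3% and 30.7%. Summed over the 12, the level was 513 to 527 TPM in Col and 584 to 683 TPM in h2a.z. The sum was lower in h3.3kd, at 309 to 310 TPM, and in the double mutant, at 243 to 318 TPM. PRX71, one of the 12, averaged 259 ± 6.25 TPM in Col, 27.5 ± 1.91 TPM in h3.3kd and 15.5 ± 3.76 TPM in the double mutant. In h3.3kd PRX71 fell by more than the sum did, so the lower sum does not hold for the other members together. The lower sum of the double mutant also came mostly from PRX71. The largest rise of the family in h2a.z was that of PRX25, which takes part in stem lignification. It read 9.49, 15.4 and 12.6 TPM in Col, 14.6, 13.6 and 13.6 TPM in h3.3kd, 48.2, 43.6 and 42.8 TPM in h2a.z, and 27.7, 18.3 and 17.8 TPM in the double mutant. The h2a.z libraries stood above every other library, the double mutant came next, and Col and h3.3kd overlapped. Its log2 difference from Col was 1.79 ± 0.16 in h2a.z (adjusted p = 4.64e-07), 0.71 ± 0.16 in the double mutant (adjusted p = 0.00162) and 0.17 ± 0.16 in h3.3kd (adjusted p = 0.432).

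PER64, which polymerises Casparian strip lignin in the endodermis, rose in each single mutant and was not called in the double mutant. Its libraries read 12.9, 13.0 and 13.7 TPM in Col, 19.2, 18.7 and 16.8 TPM in h3.3kd, 20.4, 21.2 and 20.1 TPM in h2a.z, and 13.6, 9.13 and 14.0 TPM in the double mutant. Both single mutants lay above Col with no overlap, and the double mutant overlapped Col. The log2 difference was 0.43 ± 0.12 in h3.3kd (adjusted p = 0.0116), 0.60 ± 0.12 in h2a.z (adjusted p = 0.000876) and -0.12 ± 0.12 in the double mutant (adjusted p = 0.421). AT1G44970, another endodermal peroxidase, averaged 3.73 ± 0.301 TPM in Col, 7.85 ± 0.456 TPM in h3.3kd, 5.95 ± 0.273 TPM in h2a.z and 6.19 ± 1.71 TPM in the double mutant, and was higher in each mutant (log2 differences 0.91 ± 0.15, 0.56 ± 0.15 and 0.58 ± 0.15; adjusted p = 0.000258, 0.00566 and 0.00417). AT2G22420, found in lignified tissue, was also higher in each, at 7.89 ± 0.578 TPM in Col, 11.7 ± 0.714 TPM in h3.3kd, 16.3 ± 1.39 TPM in h2a.z and 17.0 ± 1.70 TPM in the double mutant. Its log2 difference was 0.52 ± 0.09, 0.96 ± 0.09 and 1.02 ± 0.09 in that order (adjusted p = 0.000607, 1.19e-06 and 5.30e-07).

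AT4G33420, which acts in lignification of vessels, moved the other way in the knockdown. It read 70.6, 78.2 and 77.01 TPM in Col, 43.9, 45.5 and 48.5 TPM in h3.3kd, 97.5, 101 and 114 TPM in h2a.z, and 58.5, 41.0 and 38.6 TPM in the double mutant. Each mutant stood apart from Col, and h3.3kd and the double mutant overlapped each other. The log2 difference was -0.70 ± 0.12 in h3.3kd (adjusted p = 0.000351), 0.46 ± 0.12 in h2a.z (adjusted p = 0.00455) and -0.72 ± 0.12 in the double mutant (adjusted p = 0.000130). AT5G51890, a xylem peroxidase at 40.7 ± 2.96 TPM in Col, was not called in any comparison. RCI3, a cold-inducible peroxidase, was higher in h3.3kd at 81.0 ± 1.37 TPM than in Col at 58.5 ± 4.64 TPM (log2 difference 0.46 ± 0.09, adjusted p = 0.00108).

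PRX72, a lignin peroxidase of stems and endodermis, averaged 36.1 ± 1.68 TPM in Col, 46.4 ± 0.667 TPM in h3.3kd, 48.6 ± 11.38 TPM in h2a.z and 37.3 ± 4.12 TPM in the double mutant. Its log2 differences from Col of 0.36 ± 0.13 in h3.3kd and 0.39 ± 0.13 in h2a.z had adjusted p = 0.0456 and 0.0229. The first was not called without any single library of Col or h3.3kd, nor without double mutant replicate 3 (adjusted p = 0.0527 to 0.133). The second was not called without Col replicate 1, Col replicate 3, h2a.z replicate 2 or h2a.z replicate 3 (adjusted p = 0.0525 to 0.109). PRX52, which serves lignin synthesis in interfascicular fibres and was too low to be tested, read 0.148, 0.487 and 0.318 TPM in Col and 2.84, 1.70 and 1.19 TPM in h3.3kd, which did not overlap.

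Among root hair peroxidases, 4 of 6 were tested, with 2 higher and 1 lower in h2a.z. The counts were 0 and 1 for h3.3kd, and 0 and 1 for the double mutant. Rescaling changed only those of h3.3kd, to 1 and 1. Of all genes before rescaling, 28.9% were higher and 18.3% lower in h2a.z, and 9.12% and 26.7% in h3.3kd. For the double mutant the shares were 20.3% and 30.7%. A list of 4 genes is too small to be set apart from these shares. The gene called lower in h3.3kd and the double mutant was AT5G64100, described above. RHS19, a gene of the root hair set, averaged 13.0 ± 2.36 TPM in Col, 13.1 ± 1.66 TPM in h3.3kd, 22.7 ± 1.93 TPM in h2a.z and 14.7 ± 3.59 TPM in the double mutant, with a log2 difference from Col of 0.77 ± 0.16 in h2a.z (adjusted p = 0.000960). RHS18 was not called, at 5.84 ± 0.322 TPM in Col and 7.15 ± 0.274 TPM in h2a.z. AT5G39580 averaged 21.6 ± 2.77 TPM in Col and 16.5 ± 3.37 TPM in h2a.z, whose libraries overlapped. Its log2 difference of -0.38 ± 0.14 (adjusted p = 0.0411) was not called without Col replicate 1, Col replicate 3, h2a.z replicate 1, h2a.z replicate 2, h3.3kd replicate 2 or double mutant replicate 3 (adjusted p = 0.0507 to 0.178).

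AT5G17820 and AT4G11290 are known in roots as genes repressed by the transcription factor UPB1, which sets the balance of reactive oxygen species at the end of the meristem. Both were higher in h2a.z and not called in h3.3kd or the double mutant. AT5G17820 read 37.1, 44.98 and 39.3 TPM in Col, 35.4, 36.5 and 31.6 TPM in h3.3kd, 58.3, 66.8 and 77.9 TPM in h2a.z, and 45.4, 32.5 and 39.3 TPM in the double mutant. Only h2a.z stood above Col, by a log2 difference of 0.72 ± 0.12 (adjusted p = 0.000183). AT4G11290 averaged 10.7 ± 1.89 TPM in Col and 16.4 ± 1.44 TPM in h2a.z (log2 difference 0.59 ± 0.14, adjusted p = 0.00252). UPB1 itself averaged 6.70 ± 0.455 TPM in Col, 7.88 ± 0.612 TPM in h3.3kd, 3.17 ± 0.874 TPM in h2a.z and 3.23 ± 0.588 TPM in the double mutant. UPB1 was lower in h2a.z (log2 difference -0.90 ± 0.14, adjusted p = 0.000139) and in the double mutant (-0.87 ± 0.14, adjusted p = 0.000151). It was not called in h3.3kd.

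The members with no role list included the most abundant of all and the largest rise of the knockdown. PRXR1, with the highest mean level of the family, read 505, 492 and 490.0 TPM in Col, 590, 554 and 528 TPM in h3.3kd, 855, 916 and 870 TPM in h2a.z, and 731, 677 and 628 TPM in the double mutant. No mutant library fell within the Col range, and h2a.z was above all others. Its log2 difference was 0.83 ± 0.06 in h2a.z (adjusted p = 5.02e-08) and 0.45 ± 0.06 in the double mutant (adjusted p = 1.87e-05). In h3.3kd it was 0.17 ± 0.06 (limma adjusted p = 0.0383), a call lost without any single Col library and without h3.3kd replicates 1 or 2. AT2G38390 read 19.0, 20.3 and 20.0 TPM in Col, 48.4, 48.5 and 49.3 TPM in h3.3kd, 19.4, 21.1 and 23.5 TPM in h2a.z, and 40.4, 43.2 and 42.9 TPM in the double mutant. Both knockdown genotypes lay above both others, and h2a.z overlapped Col. The log2 difference was 1.26 ± 0.07 in h3.3kd (adjusted p = 8.55e-09) and 1.06 ± 0.07 in the double mutant (adjusted p = 1.81e-08). Its neighbour AT2G38380, 90.6% identical in coding sequence, chosen as its closest copy after its values were seen, was not called in h3.3kd and averaged 29.3 ± 1.23 TPM in Col, 30.3 ± 2.65 TPM in h3.3kd, 26.3 ± 1.17 TPM in h2a.z and 22.0 ± 5.18 TPM in the double mutant. This pair shares runs of up to 62 bases, so reads could have been split between them and their separate values are less certain.

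AT4G36430 had the largest rise of the double mutant. It read 1.75, 1.78 and 2.21 TPM in Col, 2.999, 4.51 and 3.997 TPM in h3.3kd, 7.89, 5.43 and 4.15 TPM in h2a.z, and 6.53, 7.41 and 8.32 TPM in the double mutant. Every mutant library exceeded every Col library, and h2a.z overlapped both other mutants. The log2 difference from Col was 0.72 ± 0.18, 1.20 ± 0.18 and 1.53 ± 0.18 in that order (adjusted p = 0.00550, 6.97e-05 and 5.34e-06). AT1G71695, at 61.3 ± 0.283 TPM in Col, reached 80.9 ± 1.78 TPM in h3.3kd, 96.1 ± 4.40 TPM in h2a.z and 107 ± 12.3 TPM in the double mutant, with log2 differences of 0.40 ± 0.07, 0.64 ± 0.07 and 0.79 ± 0.07 (adjusted p = 0.000480, 3.40e-06 and 3.19e-07). AT4G30170, at 58.6 ± 7.65 TPM in Col, was highest in h3.3kd at 90.9 ± 3.90 TPM (log2 difference 0.63 ± 0.10, adjusted p = 0.000151). AT2G37130, at 64.2 ± 6.88 TPM in Col, was highest in h2a.z at 103 ± 4.40 TPM (log2 difference 0.68 ± 0.07, adjusted p = 2.48e-06). AT2G39040 averaged 3.31 ± 0.618 TPM in Col, 2.84 ± 0.235 TPM in h3.3kd, 6.92 ± 1.04 TPM in h2a.z and 2.26 ± 0.492 TPM in the double mutant. It was higher in h2a.z by 0.88 ± 0.15 on the log2 scale (adjusted p = 0.000220) and lower in the double mutant than in h2a.z by a log2 difference of -1.29 ± 0.15 (adjusted p = 6.90e-06).

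Falls in the double mutant also included AT1G68850 and AT5G14130. AT1G68850 averaged 15.1 ± 1.67 TPM in Col, 11.3 ± 0.844 TPM in h3.3kd, 12.8 ± 1.75 TPM in h2a.z and 6.91 ± 0.339 TPM in the double mutant, with log2 differences from Col of -0.39 ± 0.10, -0.23 ± 0.10 and -1.02 ± 0.10 (adjusted p = 0.00999, 0.0828 and 1.55e-06). AT5G14130 averaged 14.7 ± 2.40 TPM in Col and 7.44 ± 1.26 TPM in the double mutant, a log2 difference of -0.89 ± 0.12 (adjusted p = 2.95e-05). Both were also lower in the double mutant than in h3.3kd, by log2 differences of -0.64 ± 0.10 and -0.75 ± 0.12 (adjusted p = 0.000261 and 0.000266).

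Set against h2a.z, the double mutant had 28 members lower and 2 higher, where 34.3% of all genes were lower and 14.2% higher, 48.5% in all. This comparison and that of h2a.z with Col share the h2a.z libraries. After rescaling, 22 members were lower and 6 higher, where 23.4% of all genes were lower and 26.1% higher, and without double mutant replicate 3 the number higher was 4. The 2 members higher in the double mutant than in h2a.z were AT2G38390 (log2 difference 0.95 ± 0.07, adjusted p = 6.33e-08) and AT3G28200 (0.24 ± 0.07, adjusted p = 0.00876). Against h3.3kd, the double mutant had 7 members higher and 12 lower, with 20.9% of all genes higher and 13.8% lower, 34.7% in all. After rescaling these were 7 and 15 members, against 18.6% and 18.4% of all genes.

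Whether the H2A.Z mutations had the same effect in both backgrounds was tested by the interaction, the log2 effect of h2a.z in h3.3kd minus that in Col. It was negative in 23 of 48 members and positive in 1, where 10.1% of all genes were called negative and 7.39% positive, 17.5% in all. The median interaction was -0.45 over the members and -0.02 over all genes. The interaction uses all 4 genotypes, the Col and h2a.z libraries included. The most negative values were those of AT5G64110 (-1.57 ± 0.20, adjusted p = 0.000117), PRX25 (-1.24 ± 0.22, adjusted p = 0.00167), AT5G58390 (-1.19 ± 0.21, adjusted p = 0.00150) and PER64 (-1.16 ± 0.17, adjusted p = 0.000393). PRXCB, with no call in h2a.z, had -1.05 ± 0.17 (adjusted p = 0.000635). The positive one, AT3G28200, averaged 94.6 ± 8.33 TPM in Col, 82.7 ± 1.04 TPM in h3.3kd, 81.1 ± 3.99 TPM in h2a.z and 96.0 ± 5.84 TPM in the double mutant (0.43 ± 0.10, adjusted p = 0.00692).

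**Figure D3:**
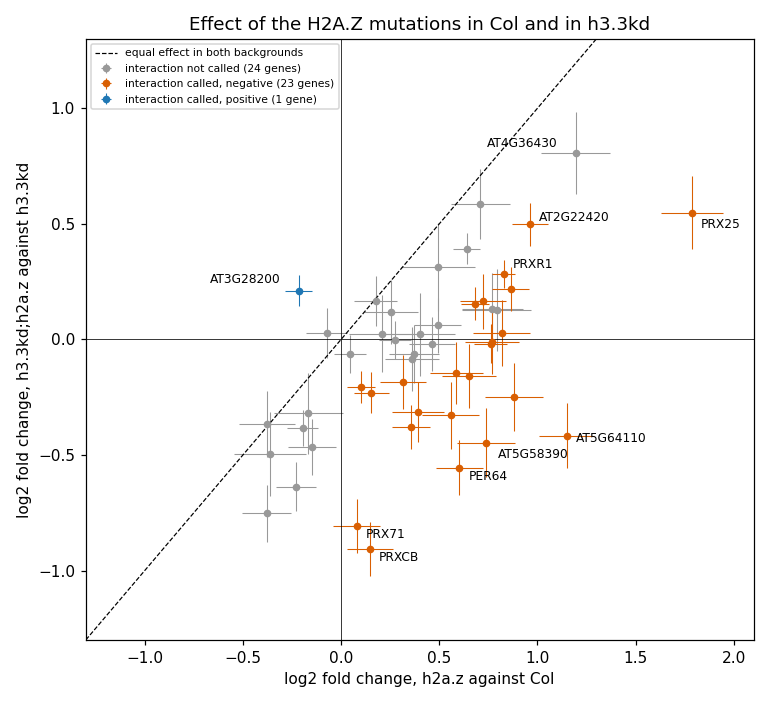
Log2 fold change of h2a.z against Col (x axis) and of the double mutant against h3.3kd (y axis) for the 48 tested members, with standard errors as bars; the dashed line marks equal effects and colours mark the interaction call. The 23 members called negative lie below the line and 1 member, AT3G28200, lies above it among those called.

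Summed over the 59 members in the table, the family reached 2050, 2135 and 2046 TPM in Col, 1933, 1904 and 1810 TPM in h3.3kd, 2787, 3059 and 3193 TPM in h2a.z, and 2111, 1923 and 1877 TPM in the double mutant. The h2a.z libraries stood above all others, h3.3kd stood below Col, and the double mutant overlapped Col. The group means were 2077 ± 49.98, 1883 ± 64.2, 3013 ± 207 and 1971 ± 124 TPM, and h2a.z was 1.45 times Col. A two-sided exact permutation test gave p = 0.1 for h2a.z and for h3.3kd, the smallest that 3 against 3 libraries allow, and p = 0.3 for the double mutant. The h3.3kd deficit of -194 TPM was -29.2 TPM after rescaling, and the h2a.z excess of 936 TPM was 765 TPM after rescaling. The double mutant's difference of -106 TPM was -2.55 TPM after rescaling (exact permutation p = 1). Without PRXR1 the differences from Col were -256 TPM in h3.3kd, 551 TPM in h2a.z and -289 TPM in the double mutant, each with exact permutation p = 0.1. The double mutant libraries, at 1247 to 1380 TPM without PRXR1, then lay below those of Col, at 1545 to 1643 TPM. PRX71, still in these sums, averaged 259 ± 6.25 TPM in Col, 27.5 ± 1.91 TPM in h3.3kd and 15.5 ± 3.76 TPM in the double mutant. Its fall makes up most of the deficits of both knockdown genotypes without PRXR1, so they do not describe the other members.

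**Figure D4:**
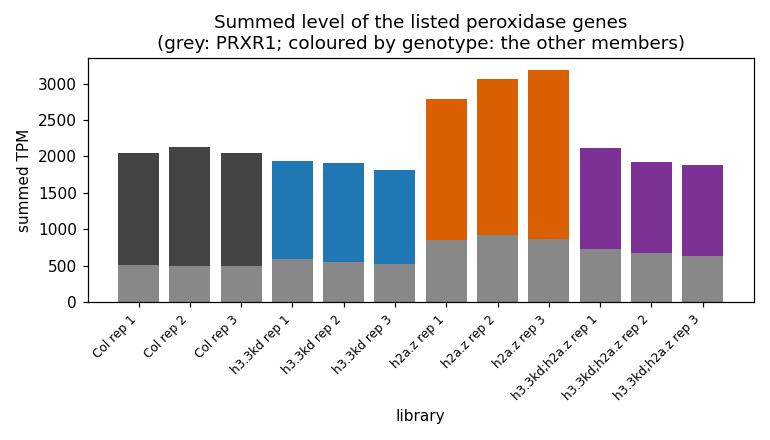
Summed TPM of the 59 listed peroxidase genes in each library, with the share of PRXR1 in grey at the base and the other members in the colour of the genotype. The h2a.z libraries reach 2787 to 3193 TPM, and the other libraries lie between 1810 and 2135 TPM.

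The genes that supply and remove the substrate of these enzymes were read beside them. Of 10 NADPH oxidase genes 7 were tested. In h2a.z 4 were higher and 0 lower, in h3.3kd 0 higher and 2 lower, and in the double mutant 1 higher and 4 lower. After rescaling these counts were 4 and 0, 1 and 2, and 2 and 4. Over all genes the shares higher and lower before rescaling were 28.9% and 18.3% in h2a.z and 9.12% and 26.7% in h3.3kd. In the double mutant they were 20.3% and 30.7%. The same shares stand beside the counts before rescaling of every list below. For rescaled counts, here and below, the shares of all genes higher and lower were 24.3% and 25.3% in h2a.z and 17.2% and 16.6% in h3.3kd. In the double mutant the rescaled shares were 26.8% and 26.1%. RBOHC, the oxidase of root hair growth, averaged 5.60 ± 1.14 TPM in Col, 4.28 ± 0.310 TPM in h3.3kd, 9.56 ± 1.62 TPM in h2a.z and 3.39 ± 1.41 TPM in the double mutant. It was higher in h2a.z by 0.68 ± 0.20 on the log2 scale (adjusted p = 0.0106). Its value in the double mutant, -0.62 ± 0.20 with adjusted p = 0.0155, was not called without Col replicate 2 (adjusted p = 0.0774) or double mutant replicate 2 (adjusted p = 0.0812). Of 13 genes for peroxide and superoxide removal 12 were tested, with 3 higher and 4 lower in h2a.z, 3 higher and 6 lower in h3.3kd, and 2 higher and 4 lower in the double mutant. After rescaling these counts were 2 and 4, 4 and 4, and 2 and 3. The catalase CAT3 averaged 364 ± 12.3 TPM in Col, 241 ± 18.8 TPM in h3.3kd and 588 ± 25.6 TPM in h2a.z (log2 differences -0.60 ± 0.06 and 0.69 ± 0.06, adjusted p = 2.73e-06 and 2.98e-07). The catalase CAT1 went the other way in both, with log2 differences of 0.42 ± 0.11 in h3.3kd and -0.90 ± 0.11 in h2a.z (limma adjusted p = 0.00778 and 1.20e-05). The superoxide dismutase CSD2 fell in h3.3kd from 205 ± 18.2 to 107 ± 4.75 TPM (log2 difference -0.92 ± 0.12, adjusted p = 3.25e-05).

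The 18 genes of lignin synthesis included the laccase LAC11, so not all of them make precursors. More of the 18 were called lower than higher in h2a.z, and more higher than lower in h3.3kd and the double mutant. In h2a.z 3 were higher and 9 lower, in h3.3kd 7 were higher and 4 lower, and in the double mutant 7 were higher and 2 lower. After rescaling these counts were 3 and 11, 10 and 1, and 9 and 1. PAL2, at the entry to the pathway, averaged 1054 ± 21.8 TPM in Col, 1309 ± 11.95 TPM in h3.3kd, 606 ± 33.2 TPM in h2a.z and 1118 ± 52.6 TPM in the double mutant, with a log2 difference of -0.80 ± 0.05 in h2a.z (adjusted p = 1.61e-08). CAD5, which reduces the precursors to alcohols, was an exception in h2a.z, at 123 ± 17.4 TPM against 63.2 ± 3.44 TPM in Col (log2 difference 0.94 ± 0.09, adjusted p = 1.30e-06). Of 13 Casparian strip and suberin genes 12 were tested, with 6 higher and 0 lower in h2a.z, 4 higher and 3 lower in h3.3kd, and 3 higher and 4 lower in the double mutant. After rescaling these counts were 5 and 0, 4 and 1, and 4 and 3. CASP1, a scaffold protein of the strip, averaged 28.3 ± 4.30 TPM in Col, 39.5 ± 1.89 TPM in h3.3kd, 47.95 ± 7.67 TPM in h2a.z and 37.95 ± 7.55 TPM in the double mutant, and was higher in each mutant (adjusted p = 0.0178, 0.000663 and 0.0287). Its calls in h3.3kd and the double mutant were not rechecked with libraries left out. The suberin gene ASFT was lower in the double mutant at 50.1 ± 5.90 TPM than in Col at 79.9 ± 5.88 TPM (log2 difference -0.67 ± 0.09, adjusted p = 1.60e-05).

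Markers of root and shoot tissue were read beside the peroxidases, and those of root were called in both directions in h2a.z. Of 13 root hair genes 11 were tested, with 6 higher and 1 lower in h2a.z, 1 higher and 0 lower in h3.3kd, and 3 higher and 0 lower in the double mutant. Their summed level was 74.1 to 89.0 TPM in Col, 86.6 to 100.1 TPM in h3.3kd, 134 to 160 TPM in h2a.z and 89.5 to 137 TPM in the double mutant. Of 9 other root markers 7 were tested, with 4 higher and 1 lower in h2a.z, 1 higher and 3 lower in h3.3kd, or 3 and 3 after rescaling, and 2 higher and 2 lower in the double mutant. Their sum in h2a.z ran the other way, from 1405 to 1503 TPM in Col to 843 to 937 TPM. It was also below Col in h3.3kd, at 1055 to 1135 TPM, and in the double mutant, at 850 to 892 TPM. PYK10, at 1333 ± 45.2 TPM in Col, makes up most of this sum. Of 7 shoot markers, 3 were higher and 2 lower in h2a.z. Their sum was 32805 to 36310 TPM in Col and 30067 to 35792 TPM in h2a.z. In h3.3kd 1 was higher and 0 lower, with a sum of 39272 to 41120 TPM. In the double mutant 1 was higher and 1 lower, with a sum of 36601 to 42053 TPM. The sums of these knockdown genotypes lay above Col. After rescaling, the shoot markers higher and lower were 2 and 2 in h2a.z, 0 and 0 in h3.3kd, and 2 and 0 in the double mutant. RBCS1A, the shoot marker called in h3.3kd, also lost its call without any single h3.3kd library and without Col replicate 1 or 2. The part of root or root hair content in the peroxidase result was not tested.

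Among the 11 members in the table under 1 TPM, AT1G05240, a root hair peroxidase, stood out in double mutant replicate 2 at 7.45 TPM, against at most 0.508 TPM in the other libraries. Its coding sequence of 978 bases is identical to that of its neighbour PRX2, so the table's separate values for these genes cannot be relied on. Over all 1770 pairs of members, coding identity ranged from 52.5% to 100%, with a median of 58.2%. In 16 pairs the members lie with at most 3 coding genes between them. The pairs with over 85% identity included Prx37 with AT4G08780 at 93.8%, AT4G37520 with AT4G37530 at 92.4% and PA2 with AT5G06730 at 86.3%, and their separate values are less certain.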

How the data were processed

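RNA-seq of 12 seedling libraries was analysed from 1 table. The authors deposited TPM values, 1 column per library, and each column sums to 1000000. The build TAIR10 and, with no role or order, the tools DESeq2 1.26.0, HTSeq 0.11.2, HISAT2 2.1.10 and fastp 0.20.1 stand in the submitters' processing notes. The computation of TPM and the use of strand are not stated in them. TPM keeps no total count; relative depth was read from low genes, in which 96.8% of values above 0 in 2468 genes were whole steps within 0.01. A column that sums to a fixed total lowers all other genes when abundant ones rise.

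limma 3.58.1 in R 4.3.3 was fitted to log2(TPM + 1) of 18851 genes averaging 1 TPM or more, with 4 genotype groups, all 12 libraries and a variance trend. Fold changes on this scale understate changes of low genes. Tests were two-sided and adjusted by Benjamini-Hochberg over all genes tested, and calls have an adjusted p below 0.05. The fit was also run on simulated data in which few genes changed, in h3.3kd only and by more than many differences reported here. That setting differs from these data, in which many genes were called, so it does not measure how reliable the calls are. Alternatives were other pseudocounts and filters, rescaling by median ratios, a replicate block, fits of only the groups compared, no variance trend and each library left out; counts without members that passed the floor through 1 genotype were added after the data were seen.

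The members and the gene lists were chosen with earlier results of these data known. Naming rules picked the 6 largest rises and 6 largest falls against Col among called members with at least 5 TPM in a group. They also picked the 4 most extreme interactions of each sign, the 6 most abundant members and tested members of the role lists. Further picks were up to 4 genes of each other list and the targeted genes. Others were chosen after their values were seen. Not every gene picked is described above. AT3G32980, among the 6 most abundant, was higher in h2a.z (log2 difference 0.28, limma adjusted p = 0.012). That call was lost without Col replicate 1 or h2a.z replicate 3 and on rescaled TPM. AT3G49960 was higher in h3.3kd (0.48, adjusted p = 0.0141), a call lost without Col replicate 1 or h3.3kd replicate 1. Symbols came from RefSeq (TAIR10.1), which matched 23739 identifiers. Upstream sequences and coordinates are those of TAIR10.1, and none were transferred from TAIR10.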

Additional observations from a re-analysis of the deposited data

Results flagged for a closer look

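The effect of the H2A.Z mutations differed between the Col and h3.3kd backgrounds in 15 of the members named, by limma's test of the interaction, the log2 effect in h3.3kd minus that in Col. It was negative in AT5G64110 (-1.57), PRX25 (-1.24), AT5G58390 (-1.19), PER64 (-1.16), PRXCB (-1.05), AT1G44970 (-0.89), PRX71 (-0.89), AT4G11290 (-0.73), PRX72 (-0.71), AT5G64100 (-0.65), AT5G17820 (-0.56), PRXR1 (-0.54), AT2G22420 (-0.46) and RCI3 (-0.39), and positive in AT3G28200 (0.43). In AT5G64110 the H2A.Z mutations went with 2.22-fold more transcript in Col and 1.34-fold less in h3.3kd, on the log2(TPM + 1) scale. The fall within h3.3kd (log2 difference -0.42, adjusted p = 0.0318) was not called without h3.3kd replicates 1 or 2 or double mutant replicates 2 or 3 (-0.44 to -0.30, adjusted p = 0.0548 to 0.141), nor in 4 other fits, with no filter, no variance trend, only the groups compared or pseudocount 5 (adjusted p = 0.0529 to 0.08).

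In 3 members the interaction call was lost when any of several libraries was left out, while the value kept its sign. That of RCI3 (adjusted p = 0.0491) was not called in 9 of the fits with 1 library left out, namely without Col replicates 1 or 3, h2a.z replicates 2 or 3, any h3.3kd replicate, or double mutant replicates 2 or 3 (adjusted p = 0.0779 to 0.113), and over all fits with 1 library left out it ranged from -0.49 to -0.30. That of AT5G17820 (adjusted p = 0.0343) was not called without Col replicates 1 or 3, h2a.z replicates 2 or 3, h3.3kd replicates 1 or 2, or double mutant replicates 2 or 3 (adjusted p = 0.0525 to 0.0872), with a range of -0.67 to -0.44. That of AT2G22420 (adjusted p = 0.0254) was not called without Col replicate 2, h2a.z replicate 3, h3.3kd replicates 1 or 2, or double mutant replicate 3 (adjusted p = 0.0532 to 0.0677), with a range of -0.54 to -0.40. What sets these members apart was not tested.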

How the results depend on the processing

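Of 191 named comparisons, none reversed under any alternative run, and 38 lost their call under at least 1 of them, 34 of these with a library left out. Counts of members moved by over 1.5 times on rescaled TPM only for members lower in h2a.z than in Col (5 against 3) and for members higher in the double mutant than in h2a.z (6 against 2); the causes were not tested, and the rescaled values put 47 members over the floor. An alternative chosen after seeing the data, without the 2 members over the floor through 1 genotype, gave 29 members higher in h2a.z than in Col, 27 lower in the double mutant than in h2a.z and 11 lower than in h3.3kd, and moved no other count. With 1 library left out, the number of members higher and lower ranged from 9 to 15 and 9 to 11 in h3.3kd against Col, from 23 to 31 and 1 to 5 in h2a.z, and from 11 to 15 and 13 to 16 in the double mutant. The ranges were 2 to 4 and 23 to 28 for the double mutant against h2a.z, 6 to 8 and 8 to 15 against h3.3kd, and 1 to 1 and 18 to 27 for the interaction. The summed level differed from Col by -220 to -158 TPM in h3.3kd, 846 to 1049 TPM in h2a.z and -176 to -59.6 TPM in the double mutant.

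Libraries with the same replicate number did not deviate together over all tested genes (correlations from -0.17 to 0.077, 0 of 18 pairs over 0.1). Such correlations cannot exclude that libraries with the same number were grown or prepared together, and the labels do not say. With the number as a replicate block, 28 members were higher and 3 lower in h2a.z, 14 and 11 in h3.3kd, and 13 and 15 in the double mutant. Members under the floor and the shallow h2a.z replicate 1 give the least precise values, and the depth of the libraries in reads is unknown.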

Other observations

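Outside the peroxidases, PRP1 and PRP3, wall proteins of root hairs, had the largest rises in h2a.z among the listed genes. PRP1 averaged 10.2 ± 1.63 TPM in Col and 25.7 ± 2.60 TPM in h2a.z (SD, n = 3; log2 difference 1.26 ± 0.16, SE; limma adjusted p = 2.05e-05), and PRP3 23.6 ± 2.27 and 53.9 ± 4.03 TPM (1.16 ± 0.13, adjusted p = 6.89e-06). LRX2 was higher in h2a.z at 7.51 ± 1.04 TPM than in Col at 3.73 ± 0.676 TPM (0.85 ± 0.19, adjusted p = 0.00183), and it averaged 3.38 ± 1.28 TPM in the double mutant. The copper-zinc superoxide dismutase CSD1 was lower in h3.3kd and the double mutant, at 57.9 ± 4.41 and 59.1 ± 6.86 TPM against 93.1 ± 8.97 TPM in Col (-0.67 ± 0.10 and -0.65 ± 0.10, adjusted p = 0.000111 and 7.14e-05).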
